A study of Bos taurus with 33 samples.

Results

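F-box proteins are the subunits by which SCF ubiquitin ligases choose their targets. The genes described here are those whose symbol starts with FBXO, FBXL or FBXW followed by a digit, in a table of bovine oocyte transcripts, a table of cumulus cell (CC) transcripts, or both. The rule looked at symbols and not at expression. Of 17543 genes in the 2 tables, 57 were members, of which 33 were FBXO, 16 FBXL and 8 FBXW genes. Of these, 56 were listed for oocytes and 57 for CC, with FBXO2 listed only for CC.

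An SCF ligase is built on the scaffold CUL1, which holds the RING protein RBX1 at one end and the adaptor SKP1 at the other. SKP1 binds the F-box of the target-choosing subunit, and an E2 enzyme then passes ubiquitin to the bound target. FBXW proteins bind targets through WD40 repeats, FBXL proteins through leucine-rich repeats and FBXO proteins through other domains. In oocytes and early embryos, ubiquitin-driven removal of cyclins and other stored proteins accompanies meiotic divisions and the handover from maternal products. CC surround the oocyte, feed it through fine processes and spread apart in a hyaluronan-rich matrix before ovulation.

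Suckled postpartum beef cows (Hereford-Angus crossbred, of mixed ages) had their estrous cycles pre-synchronized with GnRH, a progesterone insert and prostaglandin F2α, and then received GnRH1 to start a follicular wave and later prostaglandin F2α. Cows that did not show estrus received GnRH2, which induced a gonadotropin surge, and were classified by their largest follicle as small (at most 11.7 mm) or large (at least 12.7 mm). Cows that showed estrus received no GnRH2 and formed the spontaneous classification (11.7 to 14 mm), so that estrus and the kind of surge cannot be told apart in comparisons with it. Each pool held 4 oocytes, or the CC of 4 complexes, aspirated about 23 h after GnRH2 or estrus by the protocol and about 20 h by the stage label. There were 6 small, 6 large and 4 spontaneous oocyte pools, and 6, 6 and 5 CC pools. The spread given throughout is therefore that between pools, not between single oocytes or cows.

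Values are in CPM, the reads of a gene per 1000000 gene-assigned reads of its pool, with no correction for transcript length, so levels are compared here between pools and not between genes. The depth was 7664375 to 17934916 gene-assigned reads per oocyte pool and 1911600 to 5772431 per CC pool, and 3 reads, the limit that a count of 0 allows, were worth 0.167 to 0.391 and 0.520 to 1.57 CPM. This limit covers counting error only. The cell types matched their labels by most markers: all 6 oocyte markers that could be tested were higher in oocytes, with ZP2 at 4379 ± 625 CPM in oocytes and 0.121 ± 0.220 in CC, and 8 of 9 cumulus and granulosa markers were higher in CC. HAS2, the exception, stood at 193 ± 34.5 CPM in oocytes and 75.5 ± 48.2 in CC. Of the white blood cell markers 6 of 7 were higher in CC, at a summed 40.2 to 328 CPM per CC pool. The sum was 121 to 254 CPM per oocyte pool, where CSF1R, the exception, stood at 176 ± 38.3 CPM (13.7 ± 10.6 in CC). All 3 theca markers tested were higher in CC, with INSL3 at 410 ± 273 CPM there. The theca marker CYP17A1, not tested, stood at 0.183 ± 0.266 CPM in CC and 0.473 ± 1.64 in oocytes. Of 3 endothelium markers tested, VWF and TEK were higher in oocytes and none in CC. The part of such cells in the levels of the F-box genes was not tested.

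A gene was retained for testing if 4 or more oocyte pools or, for CC, 5 or more CC pools reached 5 CPM. In oocytes 40 of the 56 listed members were retained (71.4%, against 61.9% of all listed genes), and in CC 39 of 57 (68.4%, against 59.8%). Both filters were passed by 32 members, 8 were retained only in oocytes, 7 only in CC and 10 in neither. Summed over members, the family took 4220 to 4865 CPM of an oocyte pool (median 4577, n = 16) and 864 to 1731 CPM of a CC pool (median 1489, n = 17), so that the ranges of the cell types lay apart. FBXO5 alone took 27.5 to 36.3% of the family's reads in oocyte pools and 0.0205 to 0.769% in CC pools, shares that also depend on transcript length. Without FBXO5 the sums were 2705 to 3443 CPM across oocyte pools and 857 to 1728 CPM across CC pools, and the ranges still lay apart.

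To ask which members differ between the 2 cell types, CPM were recomputed over the 14980 genes listed in both tables, and log2(CPM + 1) was compared with limma, with follicle classification as a term. A member was called at a Benjamini-Hochberg adjusted p under 0.05, over the 11431 genes retained in either cell type, and a difference of at least 1 on the log2 scale. Of 47 members tested 37 were called (78.7%), where 71.8% of all genes tested were, so the share called was near that of genes at large. In oocytes 24 members were higher (51.1%, all genes 37.3%) and in CC 13 (27.7%, all genes 34.5%). The median difference was 1.26 over members and 0.19 over all genes, on the log2 scale, oocytes minus CC. CPM give a share of the RNA sequenced, so fewer cells of a type and less RNA per cell cannot be told apart.

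Passing the filter in only 1 cell type favoured a call, and 14 of the 15 members retained that way were called (93.3%, against 92.1% of such genes), FBXO47 being the exception. Of the 32 members retained in both cell types 17 were higher in oocytes (53.1%, against 34% of the 8083 genes retained in both) and 6 higher in CC (18.8%, against 29.4%), and 9 were not called. The pools of the cell types did not overlap for 19 of the 47 members (40.4%, all genes 36.3%), of which 16 were higher in oocytes (34%, all genes 23.2%) and 3 in CC (6.38%, all genes 13.1%). Rescaling by median-of-ratios size factors moved the median of all genes from 0.19 to -0.20 and that of members from 1.26 to 0.85. The split of calls among members became 22 higher in oocytes and 17 in CC, with 8156 genes called in all. Of all genes tested 47% were then higher in oocytes by any amount, beside 52.8% before. The split of all called genes after rescaling is not given, so that of members cannot be set against it.

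**Figure D1:**
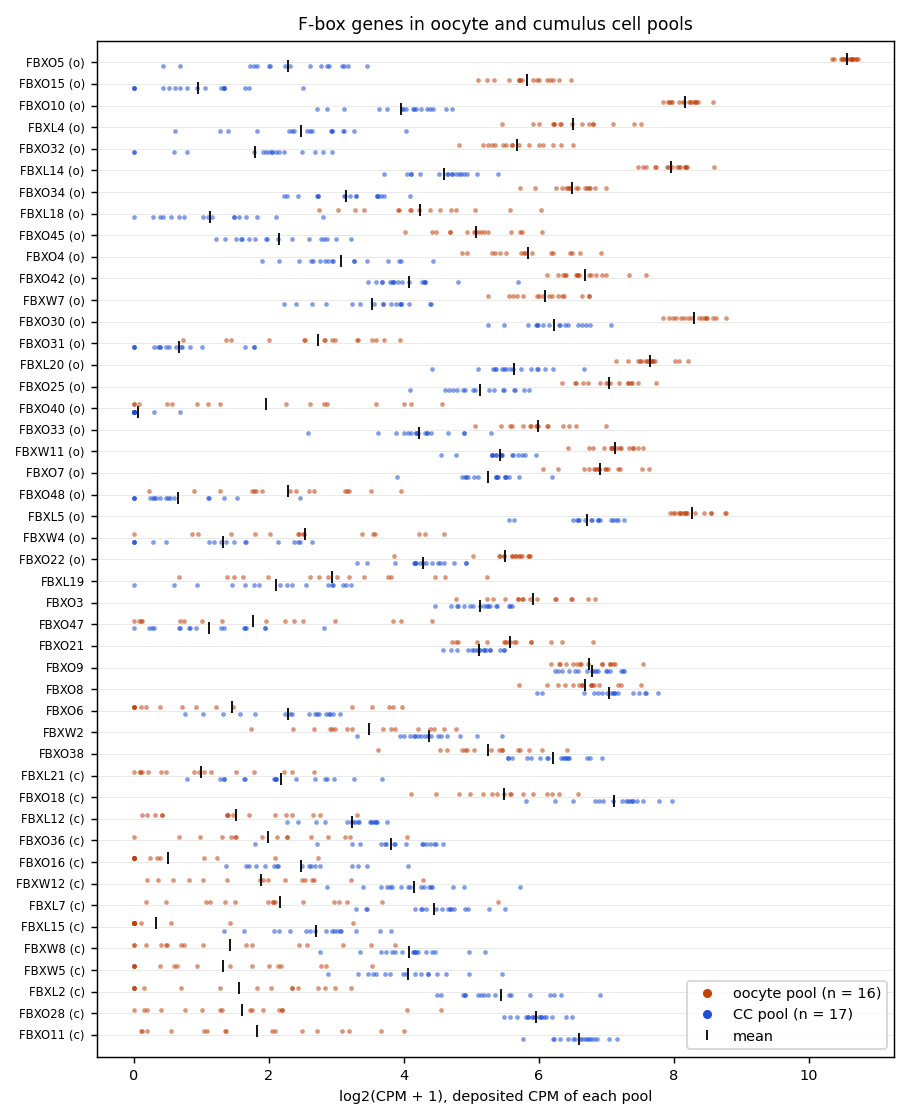
Log2(CPM + 1) of tested F-box genes in each of 16 oocyte pools (orange) and 17 CC pools (blue), from the deposited CPM, with a bar at each mean; (o) and (c) mark members called higher in oocytes and in CC, and genes are ordered by the difference. FBXO5 at the top and FBXO11 at the bottom stand furthest apart, and FBXO9 lies at the same level in both cell types.

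FBXO5 (ENSBTAG00000021193) encodes an inhibitor of the anaphase-promoting complex, the ubiquitin ligase that destroys cyclin B and securin. It had 1346 to 1752 CPM across oocyte pools (median 1582, n = 16) and 0.347 to 9.96 CPM across CC pools (median 3.97, n = 17), ranges that lay far apart. The means were 1572 ± 122 and 4.63 ± 2.74 CPM (SD), a ratio of 339, and the log2 difference was 8.34 (standard error 0.194, adjusted p = 2.66e-31, limma). No other member differed as much. FBXO5 was also the steadiest retained member across oocyte pools, with a standard deviation within classifications of 0.087 on the log2(CPM + 1) scale. The median was 0.53 over 40 retained members and 0.66 over all retained genes. In CC, where FBXO5 was low, this spread was 0.81, beside a median of 0.55 over 39 retained members. Spread was not adjusted for level. Its level in CC was 0.295% of that in oocytes. On this measure the oocyte markers ZP2 (0.00269%), ZP3 (0.00584%) and GDF9 (0.129%) stood lower, and NLRP5 (0.458%) and DAZL (0.492%) higher. The oocyte marker KIT, left out of this measure, stood much higher in CC, at 410 ± 65.8 CPM in oocytes and 161 ± 77.9 in CC. Whether the FBXO5 reads in CC came from oocyte RNA was not tested.

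FBXO15, known as a marker of pluripotent stem cells, had 34.3 to 90.6 CPM across oocyte pools (median 57.6) and 0 to 4.69 CPM across CC pools (median 0.908). Its log2 difference was 4.94 (standard error 0.213). At 1.95% of its oocyte level, the CC level of FBXO15 stood above those of ZP2, ZP3, GDF9, NLRP5 and DAZL on the same measure, which leaves out KIT. FBXO32, or atrogin-1, known from wasting muscle, ranged over 28.1 to 92.8 CPM in oocytes and 0 to 6.69 in CC, a log2 difference of 3.91 (standard error 0.260). Both passed the filter only in oocytes.

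FBXO10, known to target the survival protein BCL2, had 236 to 394 CPM across oocyte pools (median 301) and 5.54 to 25.4 CPM across CC pools (median 16.6), a log2 difference of 4.26 (standard error 0.156). FBXL4, a mitochondrial outer membrane protein that restrains mitophagy, had 44.4 to 188 CPM across oocyte pools (median 86.8) and 0.523 to 15.4 CPM across CC pools (median 5.11), a log2 difference of 4.07 (standard error 0.248). For FBXO5, FBXO15, FBXO10, FBXL4 and FBXO32 every oocyte pool lay above every CC pool. All 5 kept the call in each classification on its own, and over small, large and spontaneous pools the difference was 4.54, 4.24 and 3.91 for FBXO10 and 4.08, 4.14 and 3.39 for FBXO32.

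On the CC side FBXO11, an SCF subunit known to target the transcription factor BCL6, had 53.4 to 142 CPM across CC pools (median 98.7) and 0.0803 to 15.6 CPM across oocyte pools (median 2.43). The log2 difference was -4.75 (standard error 0.303, adjusted p = 2.49e-17, limma). FBXO28, a ubiquitin ligase subunit linked to MYC, had 43.9 to 89.0 CPM in CC and 0 to 23.0 in oocytes, a log2 difference of -4.34 (standard error 0.315). FBXL2, whose product is anchored to membranes by a lipid tail, had 21.6 to 119 CPM in CC and 0 to 8.61 in oocytes, a log2 difference of -3.87 (standard error 0.316). These 3 were the members with every CC pool above every oocyte pool. Their oocyte means were 4.28, 6.31 and 6.45% of their CC means. The cumulus markers PTX3, TNFAIP6, FSHR, GATM, INHBA, PTGS2 and AMH stood at 1.40 to 12.3% in oocyte pools on the same measure. That range leaves out 2 tested markers. CYP19A1 stood at 1.66 ± 2.29 CPM in oocytes and 7.17 ± 6.58 in CC, and HAS2 was higher in oocytes (193 ± 34.5 and 75.5 ± 48.2 CPM). Whether reads from CC gave these oocyte levels was not tested.

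FBXW5, which also serves CUL4 ligases, had 6.35 to 42.8 CPM across CC pools (median 15.4) and 0 to 10.9 CPM across oocyte pools (median 1.35), a log2 difference of -2.71 (standard error 0.327). By classification the difference was -3.40 for small, -3.01 for large and -1.38 for spontaneous pools, the last of which was not called on its own. FBXW8, the F-box partner of the cullin CUL7, had 5.76 to 35.9 CPM in CC (median 16.7) and 0 to 14.0 in oocytes (median 0.889), a log2 difference of -2.64 (standard error 0.338). Its pools overlapped between the cell types, as did those of FBXW5. FBXO28, FBXW5 and FBXW8 passed the filter only in CC.

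**Figure D2:**
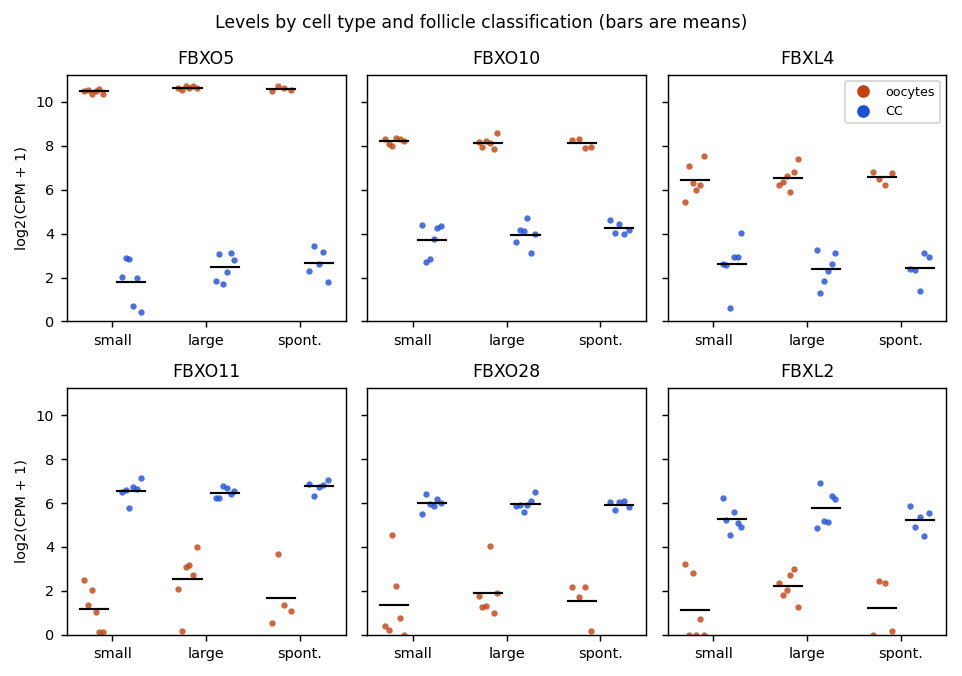
Log2(CPM + 1) of FBXO5, FBXO10, FBXL4, FBXO11, FBXO28 and FBXL2 in each pool by follicle classification, from the deposited CPM, with oocyte pools in orange, CC pools in blue and bars at the group means. The cell types lie apart in every classification for all 6 genes, and the oocyte pools scatter more for FBXO11, FBXO28 and FBXL2, which were low there, than for FBXO5 and FBXO10.

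FBXW7 and FBXW11, with known roles in the cell cycle and signalling, were higher in oocytes by smaller amounts. FBXW7, which targets cyclin E, MYC and JUN, had 38.2 to 110 CPM across oocyte pools and 3.69 to 20.3 CPM across CC pools, a log2 difference of 2.59 (standard error 0.202). FBXW11, or beta-TrCP2, which binds phosphorylated beta-catenin, IκB and WEE1, had 88.0 to 191 CPM in oocytes and 22.5 to 61.3 in CC, a log2 difference of 1.74 (standard error 0.118). Neither gene's pools overlapped between cell types.

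FBXO30, a subunit known from muscle atrophy, had 235 to 451 CPM across oocyte pools and 37.2 to 134 CPM across CC pools, a log2 difference of 2.10 (standard error 0.134). FBXL5, the iron sensor that targets IREB2, had 253 to 450 CPM in oocytes and 46.1 to 153 in CC, a log2 difference of 1.59 (standard error 0.133). Pools did not overlap for either. FBXO7, which works with parkin in the clearance of mitochondria, had 67.5 to 203 CPM in oocytes and 14.0 to 72.3 in CC, a log2 difference of 1.72 (standard error 0.151), and its pools overlapped at the edges.

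Other members with textbook roles were not called. FBXO6, which recognises sugar chains on misfolded glycoproteins, had 0 to 15.2 CPM in oocytes (median 0.797) and 0.693 to 7.31 in CC (median 5.08), a log2 difference of -0.79 with an adjusted p of 0.0727 in limma. Its means were nearly equal, at 4.18 ± 5.84 CPM in oocytes and 4.38 ± 2.15 in CC, with a permutation p of 0.899 for their difference. FBXO6 was called with a pseudocount of 0.1 and under both rescalings. Its relative FBXO2 was listed for CC only, at 0 to 1.37 CPM with no read in 8 of 17 pools. FBXO3, which carries an ApaG domain, differed by 0.83 (standard error 0.158), too little for a call. In small pools alone it was called (1.30), but not in large (0.42) or spontaneous pools (0.74).

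The remaining members ran from a log2 difference of 3.40 for FBXL14 to -2.35 for FBXL15, both named after their values were seen. By subfamily, 16 of 28 tested FBXO members were higher in oocytes and 5 in CC, with a median of 1.69, where 37.3 and 34.5% of all genes were. Among members retained in both cell types it was 11 and 3 of 20. Of 12 FBXL members 5 were higher in each cell type (median 0.05; 4 in oocytes and 2 in CC of the 8 retained in both), and of 7 FBXW members 3 were higher in each (median -0.84; 2 and 1 of the 4 retained in both). Subfamilies were not tested against each other. FBXO9, also named after its values were seen, stood at 114 ± 31.2 CPM in oocytes and 112 ± 25.6 in CC, a log2 difference of 0.00 (standard error 0.129). In the RefSeq annotation of another bovine assembly (ARS-UCD2.0) MSH6 overlaps FBXO11, NVL overlaps FBXO28, UBP1 overlaps FBXL2, SYN3 overlaps FBXO7, WNT5B overlaps FBXL14, and TRIP12 and SLC16A14 overlap FBXO36. The library kit does not mark strand, so reads from the shared stretch of such a pair could not be told apart.

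The partners of the F-box proteins were read from lists of the SCF machinery, by the same test. Of the 5 genes for SCF scaffolds, adaptor and RING proteins 4 were higher in CC, where 34.5% of all genes tested were. CUL1, the scaffold, had 19.1 ± 10.1 CPM in oocytes and 82.8 ± 25.4 in CC, a log2 difference of -2.15 (standard error 0.225), and CUL7, the scaffold used by FBXW8, 8.84 ± 8.34 and 73.0 ± 20.8, a log2 difference of -3.40 (standard error 0.339). RBX1 differed by -1.72 and RNF7 by -1.11. SKP1, the adaptor that binds the F-box, stood at 335 ± 44.3 CPM in oocytes and 251 ± 57.4 in CC, and its log2 difference of 0.49 (standard error 0.108) was too small for a call. CUL7 and FBXW8 were thus both higher in CC.

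F-box proteins with other symbols included SKP2, which targets the inhibitor p27, and BTRC, or beta-TrCP1. SKP2 had 556 ± 77.7 CPM in oocytes and 18.4 ± 6.21 in CC, a log2 difference of 4.94 (standard error 0.135), and BTRC 422 ± 63.2 and 90.0 ± 30.8, a log2 difference of 2.32 (standard error 0.121). BTRC and its paralog FBXW11 were both higher in oocytes. The histone demethylases KDM2A and KDM2B, which also carry an F-box, were not called, at -0.67 and -0.49. Of 8 such symbols 6 were listed and 4 tested, and another, FBH1, is the member counted above as FBXO18 (-1.59, higher in CC).

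Cullins work when NEDD8 is attached and are reset by its removal. Of 9 neddylation genes tested 3 were higher in oocytes and 2 in CC, where 37.3 and 34.5% of all genes tested were. The same shares stand beside the counts of the lists that follow. DCUN1D5, a helper of cullin neddylation, differed by 3.53 (standard error 0.192) and the E1 subunit NAE1 by 1.52 (standard error 0.131), whereas NEDD8 itself differed by -1.36 (standard error 0.212) and its E2 enzyme UBE2M by -1.42 (standard error 0.304). Of 12 genes of the COP9 signalosome, which removes NEDD8, and of CAND proteins, which exchange F-box subunits, 4 were higher in oocytes and 3 in CC. The paralogs of the exchange factor went apart, with CAND2 called at 3.60 (standard error 0.207) and CAND1 at -0.80 (standard error 0.122), short of a call. COPS5, the catalytic subunit, differed by -2.43 (standard error 0.174) and COPS7A by 3.62 (standard error 0.175). Of 6 genes for E2 enzymes and ARIH1, the ligase that starts ubiquitin chains on neddylated SCF, ARIH1 (1.96) and UBE2G1 (1.42) were higher in oocytes and none in CC.

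**Figure D3:**
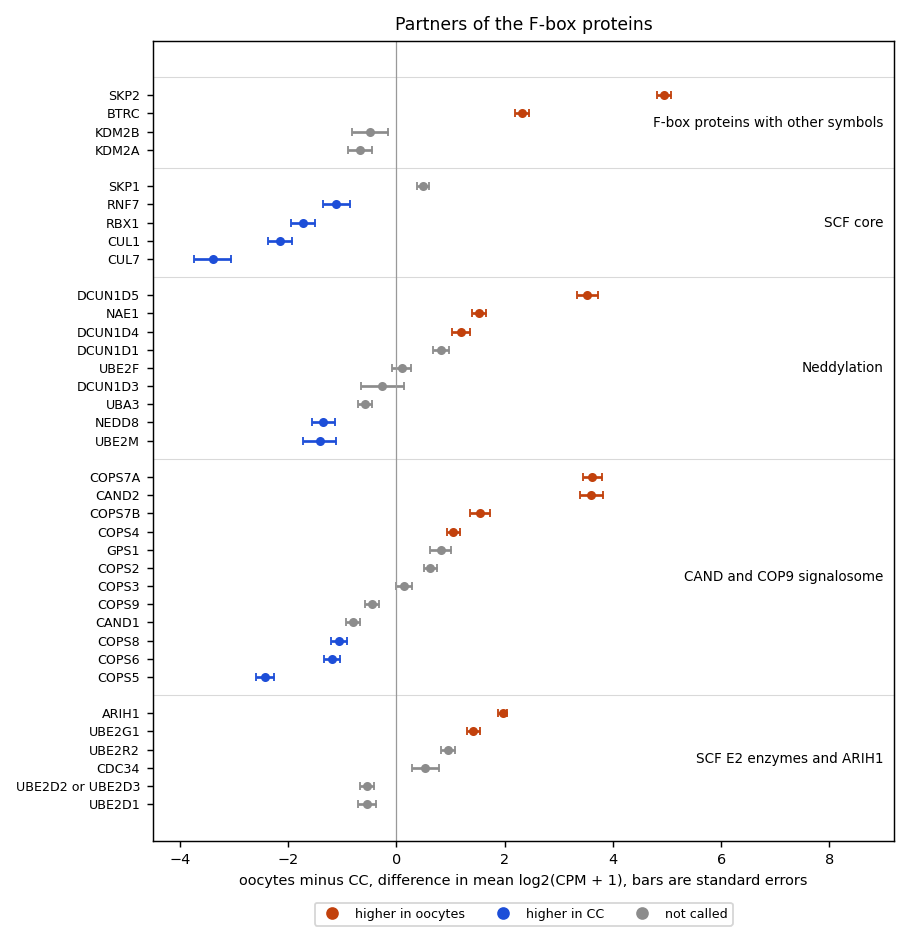
Difference between oocytes and CC in mean log2(CPM + 1), with standard errors as bars, for 36 genes grouped by list. They are partners of F-box proteins and, in the list so named, F-box proteins with other symbols. Orange marks genes called higher in oocytes, blue in CC and grey not called. SKP2 is the most oocyte-biased of these genes and CUL7 the most CC-biased, and 4 of 5 SCF core genes lie left of 0.

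Follicle classifications were then compared within each cell type, to ask whether the size of the follicle at the induced surge, or a spontaneous surge, went with a different level of any member. A member was called at a nominal p of 0.01 or less in limma, and in comparisons with small oocyte pools also without small replicate 3. From small to large follicles in oocytes FBXL5 and FBXO3 were called, 2 of 40 members (5%), both lower in large pools, where 0.655% of all genes were called and 0.208% were higher in small pools. Neither passed adjustment over all genes (adjusted p = 0.997 each). In limma 0 of 40 members were called from small to spontaneous follicles (all genes 0.774%) and 0 from large to spontaneous follicles (all genes 0.943%), with 2 and 0 members at an unadjusted p under 0.05 (all genes 4.51 and 4.87%) beside 2 from small to large (4.11%). EdgeR called 0 in both of these comparisons (56 and 91 genes in all), and DESeq2 called 1, FBXL5, from small to spontaneous follicles and 0 from large to spontaneous follicles (121 and 181 genes in all).

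FBXL5 (ENSBTAG00000021214) had 285 to 436 CPM in small oocyte pools (median 374, n = 6), 245 to 317 in large pools (median 270, n = 6), and 290, 257, 284 and 274 in the 4 spontaneous pools. The small pools were the high ones, and 5 of the 6 lay above every large and every spontaneous pool. The means were 375 ± 56.3, 274 ± 26.5 and 276 ± 14.2 CPM (SD). From small to large the log2 difference was -0.44 (standard error 0.141, p = 0.00424, limma), with an exact permutation p of 0.00649 for the difference in mean CPM, two-sided, where the smallest possible was 0.00216. Without small replicate 3 the p was 0.00757. From small to spontaneous it was -0.43 (standard error 0.170, p = 0.0179, exact permutation p = 0.0238), which did not meet the threshold, and large and spontaneous pools differed by 0.01 (standard error 0.156). These comparisons share the small pools.

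The call of FBXL5 from small to large was lost when any of small replicates 4, 5 and 6 or large replicates 1, 2, 5 and 6 was left out. The differences ran from -0.52 to -0.39 over all left-out pools. Each such call had also to pass without small replicate 3, so a loss can stem from leaving out both pools. In CC the FBXL5 means for small, large and spontaneous pools were 112 ± 37.7, 106 ± 34.5 and 109 ± 17.3 CPM. The difference between the oocyte and CC changes from small to large was -0.38 (standard error 0.309, adjusted p = 0.997, limma), so a difference between cell types was not shown. Summed oocyte markers ran over 8436 to 11115 CPM in small and 7641 to 10143 CPM in large oocyte pools, and summed cumulus and granulosa markers over 361 to 522 and 209 to 781 CPM. Their part in the FBXL5 difference was not tested.

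FBXO3 had 52.7 to 113 CPM in small oocyte pools (median 82.0, n = 6), 26.4 to 61.8 in large pools (median 47.6, n = 6), and 50.7, 74.8, 39.2 and 88.4 in spontaneous pools. The small and large pools overlapped, and the spontaneous pools fell within their combined range. The means of 82.1 ± 24.7 and 45.5 ± 12.7 CPM gave a log2 difference of -0.83 from small to large (standard error 0.274, p = 0.00516, limma, exact permutation p = 0.0130), and -0.92 without small replicate 3 (p = 0.00368). The call, which had again to pass without small replicate 3 as well, was lost without small replicate 1, 2 or 6 or large replicate 2 or 6. In CC FBXO3 stood at 33.3 ± 8.82, 34.9 ± 10.6 and 36.8 ± 2.52 CPM across small, large and spontaneous pools, and the test of oocyte against CC change gave -0.88 (standard error 0.349, adjusted p = 0.977, limma), short of the nominal threshold.

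**Figure D4:**
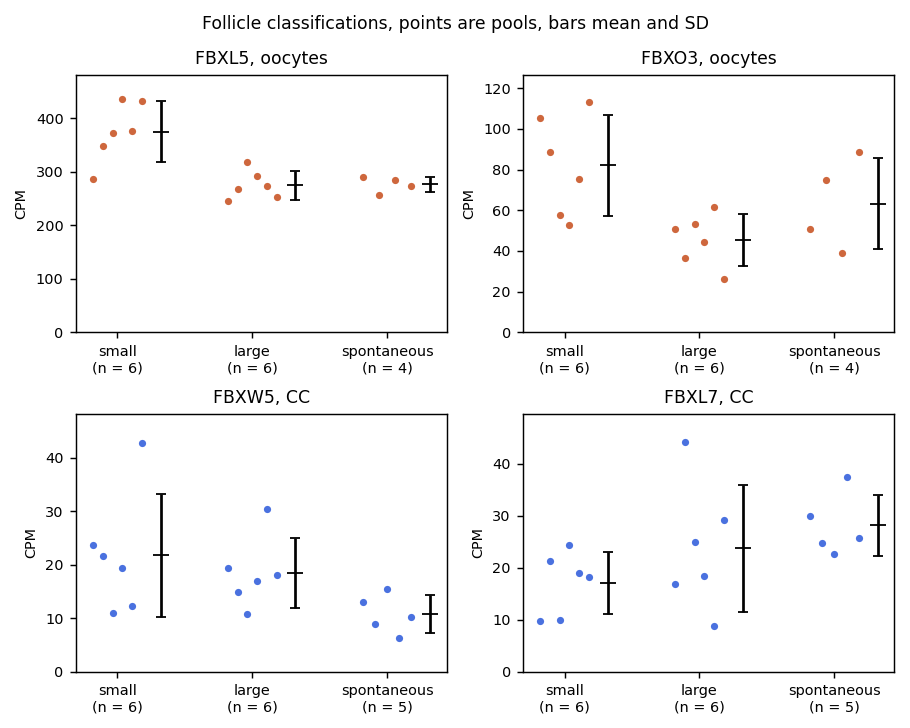
CPM of FBXL5 and FBXO3 in oocyte pools and of FBXW5 and FBXL7 in CC pools by follicle classification; points are pools and bars the mean and SD (n under each group). Small pools are the high ones for FBXL5, where 5 of 6 lie above all other pools, and spontaneous CC pools are low for FBXW5, with ranges that overlap in every pair of classifications.

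FBXO5 means for small, large and spontaneous pools were 1426 ± 97.9, 1607 ± 57.4 and 1552 ± 119 CPM, and the log2 difference from small to large was 0.17 (standard error 0.0900), with p = 0.0623 in limma and an exact permutation p of 0.00433 on linear CPM. The small and large pools of FBXO5 overlapped and it was not called. FBXO36, named after its values were seen, had 0 to 8.18 CPM in small pools (median 1.85) and 15.6, 3.85, 7.74 and 6.36 CPM in spontaneous pools, a log2 difference of 1.58 (standard error 0.769, p = 0.0490, limma, exact permutation p = 0.0381). Medians over members were 0.03, 0.03 and -0.02 from small to large, small to spontaneous and large to spontaneous, beside 0.05, 0.05 and 0.01 over all genes.

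In CC 0 of 39 members met the threshold from small to large (all genes 0.813%), from small to spontaneous (2.38%) or from large to spontaneous (1.66%) in limma, and in each comparison 2 members stood at an unadjusted p under 0.05 (all genes 4, 8.55 and 7.07%). EdgeR called 0, 1 and 0 members (63, 128 and 127 genes in all) and DESeq2 0, 1 and 2 (112, 217 and 199 genes in all). The adjusted p-values of members were 0.438 or more. Over all retained CC genes the median difference was 0.16 between small and spontaneous and 0.11 between large and spontaneous pools, and 0.01 in both after median-of-ratios scaling, so CC differences are read against that shift. The medians over members were 0.06 and 0.05, and -0.08 and -0.04 after rescaling. In no pair of classifications, in either cell type, did the pools of a retained member fail to overlap (all genes 0.258, 0.903 and 0.913% in oocytes and 0.247, 1.16 and 0.865% in CC).

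Of the partner genes and the F-box genes with other symbols, 36 were tested between classifications in oocytes and 35 in CC. From small to spontaneous oocytes NEDD8 (1.45) and DCUN1D4 (-1.09) met the nominal threshold, and from small to large CC BTRC (0.81), where 0.774 and 0.813% of all genes did. The smallest adjusted p of any of these genes in any comparison was 0.583 (limma).

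The members nearest the threshold in CC are given by value, FBXL7, FBXL20 and FBXO4 being named after their values were seen. FBXW5 had 10.99 to 42.8 CPM in small CC pools (median 20.5), 10.7 to 30.4 in large pools (median 17.5), and 13.0, 8.97, 15.4, 6.35 and 10.1 in spontaneous pools. The log2 difference was -0.87 from small to spontaneous (standard error 0.332, p = 0.0179, limma, exact permutation p = 0.0390), and against large pools it was -0.71 (standard error 0.294, p = 0.0268, limma, exact permutation p = 0.0303). Spontaneous pools were thus the low ones for FBXW5, against a median of all genes that went up. Relative to that median, by median-of-ratios scaling, FBXW5 met the threshold from small to spontaneous, as it did without mitochondrially encoded genes, in edgeR and in DESeq2.

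FBXL7 had 9.81 to 24.3 CPM in small CC pools (median 18.6) and 29.9, 24.8, 22.7, 37.4 and 25.8 in spontaneous pools, a log2 difference of 0.74 (standard error 0.270, p = 0.0138, limma, exact permutation p = 0.00866). Of these spontaneous pools 4 lay above every small pool. From small to large FBXW11 differed by 0.47 (standard error 0.218, p = 0.0436, limma, exact permutation p = 0.00866), at 35.8 ± 8.96 and 48.8 ± 5.67 CPM. FBXL20, at 41.9 ± 15.5 and 63.6 ± 21.4 CPM, differed by 0.61 (standard error 0.270, p = 0.0349, limma, exact permutation p = 0.0693). From large to spontaneous FBXO4 differed by -0.78 (standard error 0.345, p = 0.0375, limma, exact permutation p = 0.0390), with means of 9.78 and 5.11 CPM. Summed white blood cell markers ran over 46.6 to 231, 40.2 to 178 and 57.0 to 328 CPM in small, large and spontaneous CC pools, and summed theca markers over 232 to 1167, 549 to 878 and 549 to 1301 CPM. Their part in these differences was not tested.

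**Figure D5:**
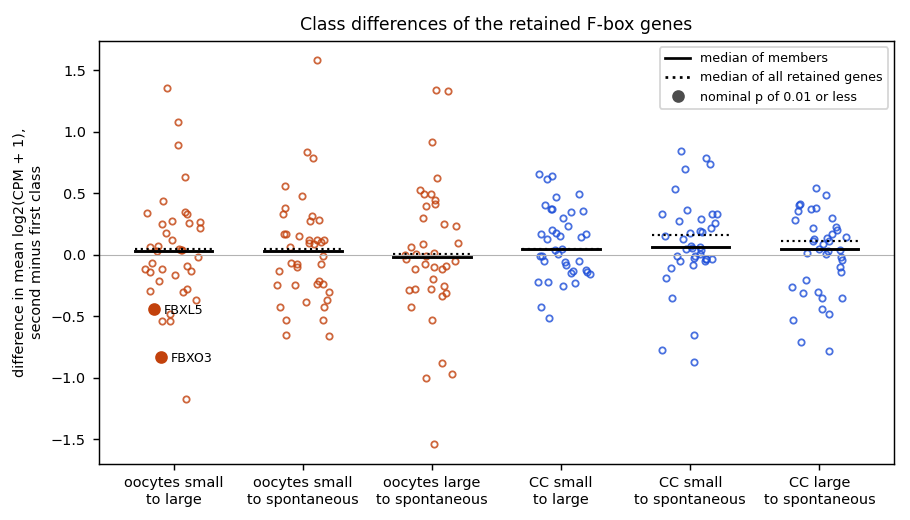
Difference in mean log2(CPM + 1) of each retained F-box gene for the 6 comparisons of follicle classifications (40 members in oocytes, orange, and 39 in CC, blue), with solid lines at the median of members and dotted lines at the median of all retained genes; filled points have a nominal p of 0.01 or less. FBXL5 and FBXO3 are the filled points, and in CC from small to spontaneous the median of members (0.06) lies below that of all genes (0.16).

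A test of whether each class difference differed between oocytes and CC called 0 of 47 members for small to large (all genes 1.14%), 0 for small to spontaneous (1.35%) and 0 for large to spontaneous (0.936%) in limma, with 3, 1 and 1 members at an unadjusted p under 0.05 (all genes 4.65, 5.92 and 4.64%). FBXW5 came nearest, with a log2 difference from small to spontaneous of 1.15 in oocytes and -0.87 in CC, which differed by 2.02 (standard error 0.778, adjusted p = 0.760, limma). The oocyte values behind it were low, with 0 to 3.55 CPM in small and 0 to 10.5 CPM in spontaneous pools.

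The family's summed level differed between classifications by less than the spread between pools. In oocytes the sums for small, large and spontaneous pools were 4576 ± 206, 4573 ± 205 and 4536 ± 198 CPM, and in CC 1435 ± 334, 1491 ± 182 and 1478 ± 129 CPM. Within a classification, retained members varied in oocytes by a median SD of 0.53 on the log2(CPM + 1) scale, from 0.09 for FBXO5 to 1.72 for FBXO6, beside 0.66 over all retained genes, and in CC by 0.55, beside 0.48.

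The 10 members retained in neither cell type were FBXL8, FBXL13, FBXL16, FBXL22, FBXO2, FBXO17, FBXO24, FBXO41, FBXO44 and FBXW9, and they are given without a test. FBXO17 had no read in 15 of 16 oocyte pools and up to 6.17 CPM across CC pools. FBXL16 and FBXL22 had no read in 16 of 17 CC pools each, while FBXL22 reached 18.4 CPM in an oocyte pool. FBXO41 was near 0 in both cell types, at most 0.708 CPM in oocytes and 0.428 in CC. The other members of this group had medians of 1.59 CPM or less over the pools of either cell type, with single oocyte pools at up to 20.8 CPM for FBXL13, 20.7 for FBXO44 and 15.4 for FBXW9.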

How the data were processed

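Oocytes of suckled beef cows were separated from their CC with hyaluronidase, and RNA of each pool was amplified from the 3′ end and from random primers. The authors trimmed single-end reads with fqtrim, aligned them with Hisat2 to UMD3.1 and counted them per Ensembl gene with featureCounts. The deposited values are CPM, made by the authors from those counts, in 1 table for oocytes and 1 for CC, whose columns were matched to pools by name (0 columns unmatched). The authors removed 1 spontaneous oocyte pool for low cDNA. Versions of these tools are not given in the sources used here.

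Tables were joined by Ensembl identifier. The main test was limma 3.58.1 (R 4.3.3) with an intensity trend on log2(CPM + 1), after the filter on 5 CPM. For oocytes against CC, CPM were recomputed over shared genes, so oocyte values there are slightly higher than deposited. Whole reads, recovered from the CPM (100% within 0.05 of a whole number), were tested with edgeR 4.0.16 (quasi-likelihood) and DESeq2 1.42.0 as alternatives. Single values were compared with exact permutation tests on CPM, or 100000 resamples between cell types. Other alternatives were a pseudocount of 0.1, no filter, median-of-ratios scaling, leaving out 13 mitochondrially encoded genes, a replicate block, each classification alone, reads thinned to 1910793 per pool, and each pool left out. With a pool left out, calls against small oocyte pools still had to pass without small replicate 3 as well. The tests were tried on simulated data with known differences. Figures were drawn with matplotlib 3.10.9.

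Genes were named by rule: members called between classifications, the 5 most different on each side between cell types, and members with textbook roles in the cell cycle, signalling, iron or glycoprotein control. The members and lists were chosen with earlier results of these data known. Of the family, 1 member is not reported here and another enters counts and medians only. No 2 pools of the same cell type and classification agreed within sampling noise, and pools of different classifications were not compared in this way. The largest follicle of each cow was aspirated, so by the protocol pools of 1 cell type held different cows, though no label names the cows of a pool. The p-values measure the spread between these pools. Positions and sequences are not given, since the annotation used for names and neighbours (RefSeq, ARS-UCD2.0, 56 of 57 members matched) is of another build than the files.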

Additional observations from a re-analysis of the deposited data

Results flagged for a closer look

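Each group of 4 to 6 pools of a named member was checked for a pool far from the others by Dixon's criterion. Of 108 groups 9 held such a pool, where chance alone gives about 5.4. In oocytes they were mostly members low in oocytes and high in CC. FBXO11 was at 11.7 CPM in spontaneous replicate 2, with the next pool at 1.59. FBXO28 was at 22.4 CPM in small replicate 3 (next 3.60) and at 15.5 CPM in large replicate 4 (next 2.79). FBXW8 was at 13.6 CPM in small replicate 2 (next 4.44) and at 4.92 CPM in spontaneous replicate 2 (next 0.683). Summed cumulus and granulosa markers in those pools were 414 CPM in spontaneous replicate 2, 522 in small replicate 3, 526 in large replicate 4 and 450 in small replicate 2, where oocyte pools in all ran from 209 to 781, and their part in these values was not tested.

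The other far pools were FBXO6 at 14.7 CPM in oocyte spontaneous replicate 3 (next 1.34), FBXO15 at 78.1 CPM in oocyte large replicate 2 (next 51.4) and at 4.68 CPM in CC spontaneous replicate 2 (next 1.46), and FBXW11 at 61.3 CPM in CC spontaneous replicate 5 (next 42.8).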

How the results depend on the processing

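Of 37 members called between oocytes and CC, 32 were called in all 44 alternatives and left-out pools. FBXW5 and FBXO36 were not called in spontaneous pools alone, FBXL21 in small or spontaneous pools alone, FBXW4 in large or spontaneous pools alone and with median-of-ratios scaling, and FBXO22 with that scaling, without mitochondrially encoded genes, in DESeq2 and in spontaneous pools alone. Leaving out single pools gave 37 to 38 calls. Thinning reads, chosen after seeing the data, gave 37 (24 higher in oocytes, 13 in CC), with 8303 genes called in all. No direction reversed.

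Between classifications, 0 members became 1 from small to spontaneous oocytes in DESeq2 (FBXL5), 1 in CC from small to spontaneous with median-of-ratios scaling, without mitochondrially encoded genes, in edgeR and in DESeq2 (FBXW5), and 2 in CC from large to spontaneous in DESeq2 (FBXO4, FBXW5). In the oocyte against CC test of class differences 1 was called from small to spontaneous with median-of-ratios scaling (FBXW5) and 1 from large to spontaneous with no filter (FBXL16). Leaving out single pools gave 0 to 2 members from small to large oocytes, 0 to 1 from small to spontaneous oocytes (1 without small replicate 1, FBXL5), 0 to 1 in CC from small to spontaneous (FBXW5 without small replicate 3 or 5, FBXL7 without small replicate 4), and 0 to 1 in each of the 3 tests of class differences between cell types.

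Over all genes, calls in oocytes were 66 from small to large (113 in DESeq2), 78 from small to spontaneous (121 in DESeq2, 42 with the replicate block) and 95 from large to spontaneous (181 in DESeq2). In CC from small to spontaneous they were 231 (127 with median-of-ratios scaling, 127 without mitochondrially encoded genes, 128 in edgeR), and the small to large test between cell types gave 130 (71 with the replicate block). CC of a pool came from the same complexes as its oocytes, but no label ties equal replicate numbers to the same complexes. On values centred within each group, same-numbered oocyte and CC pools correlated by 0.00913 to 0.0490 in small and -0.0321 to 0.0312 in large pools. In small pools the mean was 0.025. The mean of -0.005 for unlike numbers is set by that centring and is no separate comparison. The best match was the own number in 4 of 6 small, 1 of 6 large and 1 of 4 spontaneous pairs. Pairing by number thus remains possible, and the main test did not use it. With the replicate block, 2 members were called from small to large oocytes and 39 between small and large oocyte and CC pools, and the block changed no count of members by over 1.5 times. Depth limits members under about 1.57 CPM in CC, where 0 reads remain possible in the shallowest pool.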

Other observations

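Transcripts of proteins that F-box ligases are known to degrade were read from a list of 16 genes, of which 14 were listed and 13 tested between oocytes and CC by the same limma test. In oocytes 5 were higher, with CDC25A, a target of beta-TrCP, at 60.5 ± 19.0 CPM in oocytes and 1.97 ± 1.78 in CC (log2 difference 4.56, standard error 0.246) and the clock gene PER1 at 259 ± 56.0 and 22.2 ± 9.18 (3.60, standard error 0.168). CRY1 differed by 2.08, NFKBIA by 1.32 and CCNE1, a target of FBXW7, by 1.13. In CC 5 were higher, with WEE1 at 1.69 ± 2.35 CPM in oocytes and 27.5 ± 8.27 in CC (log2 difference -3.76, standard error 0.290), MYC at -3.27, MCL1 at -2.16, JUN at -1.54 and CCNE2 at -1.11. The kinase WEE1 and the phosphatase CDC25A, which act in opposite ways on cyclin-dependent kinases, thus lay on opposite sides. IREB2, the target of FBXL5, differed by -0.43, CTNNB1 by -0.74 and CDKN1B, a target of SKP2, by 0.63, all too small for a call. The counts of 5 and 5 of 13 stand beside 37.3% of all genes tested higher in oocytes and 34.5% in CC. The median over the list was -0.43, beside 0.19 over all genes, and transcript levels say nothing of protein levels.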
